A study of Arabidopsis thaliana with 8 samples.

Results

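The genes described here are 41 Arabidopsis thaliana genes of cytokinin transport, degradation and response, chosen by gene identity, namely 1 synthesis, 3 transport, 2 conjugation, 7 oxidase, 3 receptor, 4 phosphotransfer, 5 type-B, 10 type-A and 6 response factor genes. Of these, 14 had a row in the authors' deposited table, which lists 2958 called genes, and 27 had none. Poly(A) RNA was sequenced from leaf protoplasts of 4-week-old Col-0 rosettes that had taken up plasmid by polyethylene glycol and stood overnight, in 4 libraries labelled div1 and 4 labelled ev. The design names a transient assay of the transcription factor DIV1, a MYB-type DNA-binding protein, and the labels do not expand ev. All 8 libraries share the Col-0 genotype and the protoplast preparation. The share of cells that took up plasmid is not known here.

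Cytokinins are adenine-derived plant hormones. Cells take them up through permeases, inactivate them by oxidation or by attaching glucose, and sense them with histidine kinases that pass a phosphate through carrier proteins to response regulators in the nucleus. Type-B regulators are DNA-binding activators. Type-A regulators restrain the pathway, and some but not all of them are themselves switched on by it. Cytokinin response factors form a side branch of transcription factors. In leaves the hormone is known for delaying senescence and for linking nitrogen supply to growth.

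The deposited table holds a normalized count averaged over all libraries, a log2 fold change (SE beside it) and p-values, with no value for any single library, so the spread between replicates enters only through that standard error. Whether replicates are separate plants or separate transfections is not stated, and the p-values may therefore measure technical spread. DIV1 (AT5G58900) showed a log2 change of 7.61 (SE 0.88) and averaged a normalized count of 45281 per the authors' deposited table. That value sets the direction, with positive changes read as higher in div1 cells. None of 15 marker genes of mesophyll, guard cells, epidermis and vasculature had a row, which leaves the labelled leaf identity without a measured level here. In such bulk RNA, fewer cells of a type and less RNA per cell cannot be told apart.

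Among the members, cytokinin oxidases fell (4 of 7), type-A response regulators rose (3 of 10), type-B regulators fell (2 of 5), response factors fell (2 of 6), purine permeases rose (2 of 3) and 1 of 2 cytokinin glucosyltransferases rose. None of the 3 receptors and 4 phosphotransfer proteins had a row, and no difference between roles was tested. In total 6 members were called higher and 8 lower at an adjusted p under 0.05 per the authors' deposited table, which is 34.1% of the 41. Among the 18010 genes behind the authors' adjustment, 16.4% were called, 9.14% higher and 7.28% lower. Of the members, 14.6% were called higher and 19.5% lower. The list was drawn up with earlier results of these data known, and the share over all genes counts tested genes only, so the excess over it is a description and not independent evidence about the pathway. A change of at least 2-fold was listed for 9 members (22.0%), against 5.67% of all genes tested.

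**Figure D1:**
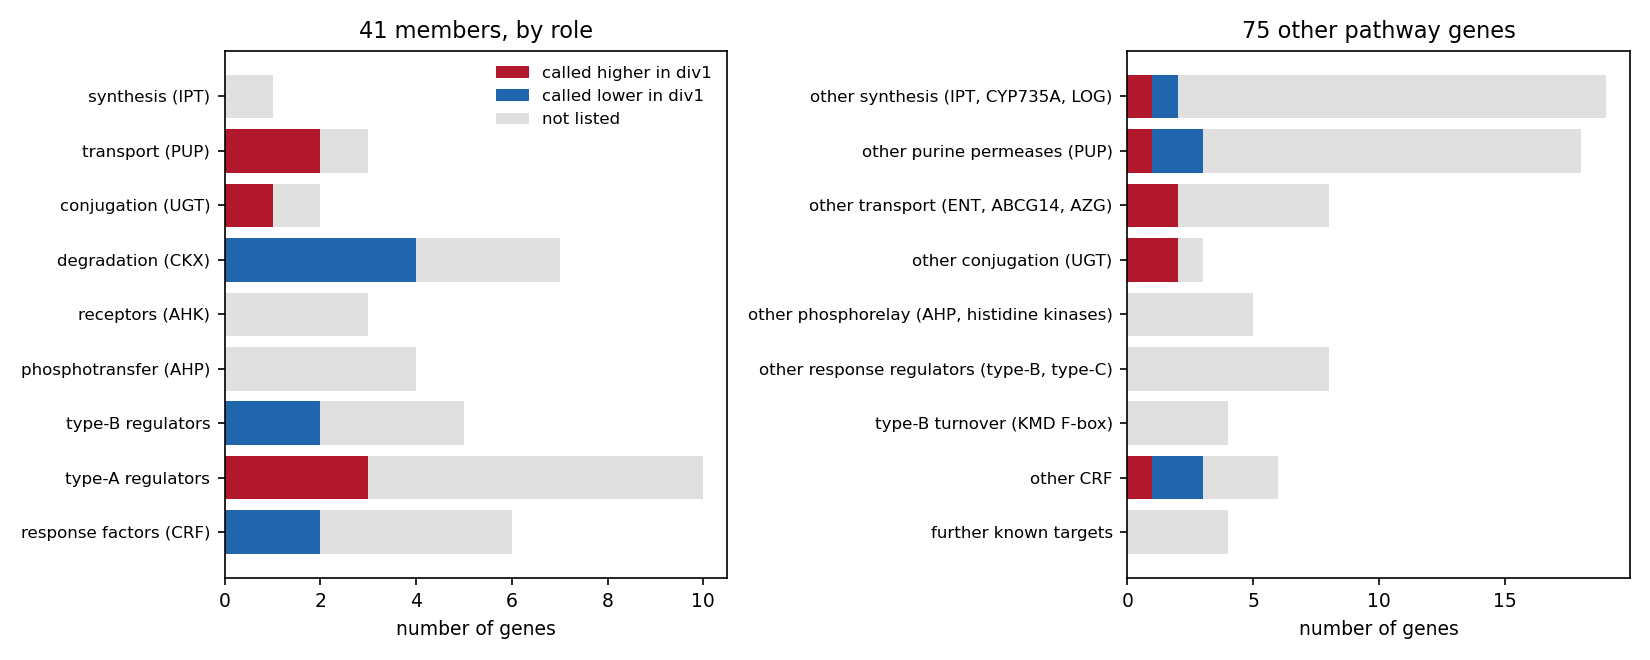
Number of genes (x axis) in each role that were called higher in div1 (red), called lower in div1 (blue) or had no row (grey), for the 41 members (left) and 75 other genes of the pathway (right). Oxidases have 4 lower calls and no higher one, type-A regulators 3 higher calls and no lower one, and receptors and phosphotransfer proteins have no call.

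The median absolute log2 fold change of the 14 called members was 1.49, against 0.78 over all 2958 called genes per the authors' deposited table. Their standard errors had a median of 0.31, against 0.19 for all calls, although ARR10, ARR2, UGT76C2 and CKX4 lay below that median of all calls. A gene with a larger standard error needs a larger change to be called, so the medians of size are not compared on equal terms. The mean normalized counts of the called members ran between 73.4 and 10240, with a median of 725, against a median of 1092 for all calls per the authors' deposited table. The low-count genes CKX3 and ARR9 and the high-count gene CKX4 mark the ends of that range.

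**Figure D2:**
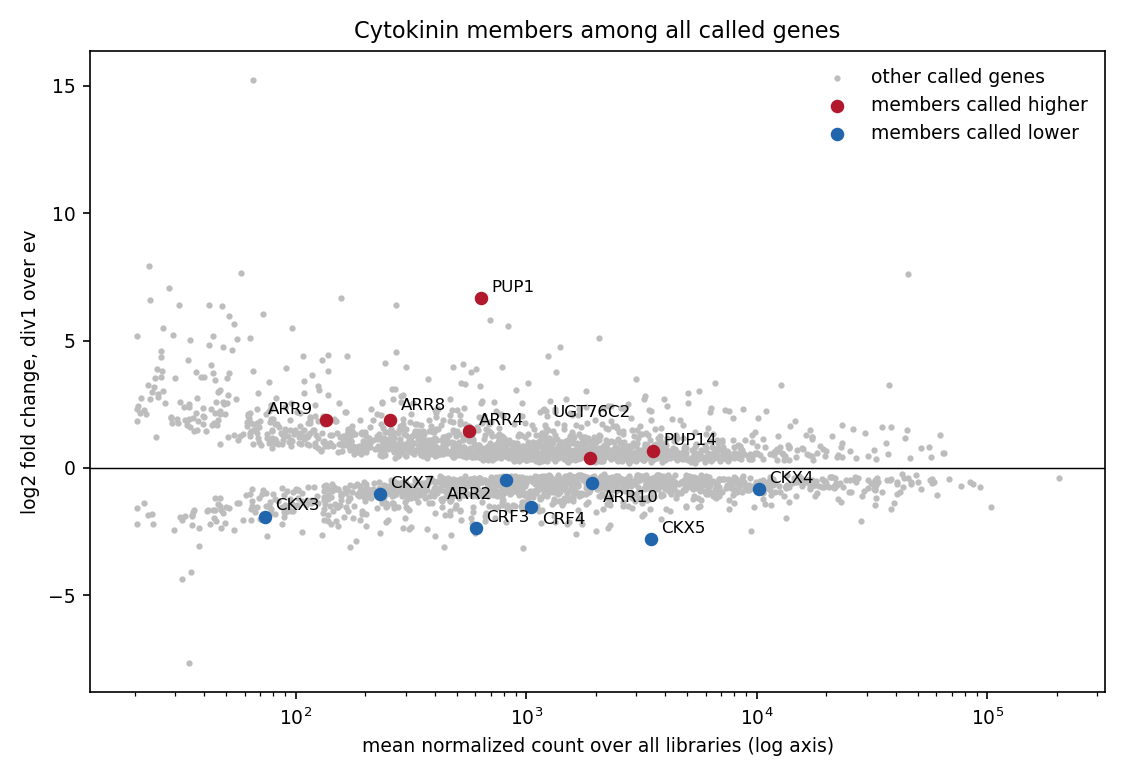
Log2 fold change of div1 over ev (y axis) against the mean normalized count over all libraries (x axis, log scale) for all 2958 called genes (grey), with members called higher in red and lower in blue. PUP1 at 6.68 and CKX5 at -2.80 lie at the edges of the cloud, and UGT76C2 at 0.38 lies close to 0.

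Purine permeases carry adenine and cytokinin bases across membranes. PUP1 (AT1G28230), which takes up adenine and cytokinins when expressed in yeast, had the largest change of the 14 called members. Its log2 fold change was 6.68 (SE 0.56, adjusted p 1.63e-30), the 7th highest of 2958, at an average normalized count of 638 per the authors' deposited table. From that mean and fold change, and taking each group as 4 libraries, its level was estimated at 1263 normalized counts in div1 cells and 12.3 in ev cells. The estimate in ev cells is low, and the 103-fold change has a wide 95% interval, 48.2-fold to 218-fold. What sets that width was not tested. PUP14 (AT1G19770), a plasma membrane importer that limits cytokinin perception from outside the cell, rose by 0.67 (SE 0.23, adjusted p 0.0268) on the log2 scale per the authors' deposited table. Its estimated levels were 4339 normalized counts in div1 cells and 2735 in ev cells. PUP14 shares 11.9% of its exon bases with CNGC8 on the opposite strand, which had no row. PUP2 (AT2G33750) was not listed.

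PUP1 lies on chromosome 1 at 9862041 to 9864779, minus strand, and PUP14 on chromosome 1 at 6832325 to 6833837, plus strand (TAIR10.1, as for all positions here). The PUP1 relative PUP3, which was not listed, lies 472 bases away on the same strand. No stretch of 50 bases in the PUP1 exons recurs elsewhere in the genome. The 250 bases upstream of its annotated start (chr1:9864780-9865029, minus strand) are shown because this gene changed most. Here and below, capitals mark matches, on either strand, to AGATT or AGATC, the core read by type-B regulators, to the I-box GATAAG, or to TATCCA, a sugar-repression word bound by MYB proteins of the DIVARICATA kind in rice. The PUP1 window holds no match.
PUP1: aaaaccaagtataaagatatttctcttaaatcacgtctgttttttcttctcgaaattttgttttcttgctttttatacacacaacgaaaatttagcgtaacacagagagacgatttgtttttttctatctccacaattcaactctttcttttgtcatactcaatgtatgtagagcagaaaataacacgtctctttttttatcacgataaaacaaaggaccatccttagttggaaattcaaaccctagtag

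Glucosylation stores or inactivates cytokinins. UGT76C2 (AT5G05860), which attaches glucose to ring nitrogens of cytokinins, had the smallest change among the called members, a log2 change of 0.38 (SE 0.14, adjusted p 0.0394) per the authors' deposited table. Its estimated level was 2140 normalized counts in div1 cells and 1643 in ev cells, and its 95% interval reached down to a 1.08-fold change. Its tandem copy UGT76C1 (AT5G05870), 119 bases downstream, was not listed, and no 50-base stretch is shared between them. UGT76C2 lies on chromosome 5 at 1765390 to 1767510, plus strand. The difference between the copies was not tested. The synthesis gene of the list, IPT3 (AT3G63110), which adds the isopentenyl side chain and responds to nitrate, was not listed.

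Cytokinin oxidases cut the side chain and end the hormone's activity, and the 4 oxidases with a row all fell. CKX5 (AT1G75450) showed a log2 change of -2.80 (SE 0.40, adjusted p 2.04e-10), the 9th lowest of all 2958 calls per the authors' deposited table. Its estimated level was 871 normalized counts in div1 cells and 6056 in ev cells, a 6.95-fold reduction with a 95% interval between 4.03-fold and 12.0-fold. CKX3 (AT5G56970), an enzyme of the vacuole, showed a log2 change of -1.91 (SE 0.43, adjusted p 1.51e-04) per the authors' deposited table. It had the lowest mean per kilobase of the called members, with estimated levels of 30.8 normalized counts in div1 cells and 116 in ev cells.

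CKX4 (AT4G29740) had the highest mean per kilobase of the called members, and its change was the smallest of the 4 oxidases. It fell by 0.82 (SE 0.17, adjusted p 2.39e-05) on the log2 scale per the authors' deposited table, with estimated levels of 7404 normalized counts in div1 cells and 13077 in ev cells. CKX7 (AT5G21482), the oxidase of the cytosol, fell by 1.03 (SE 0.32, adjusted p 0.0121) on the log2 scale per the authors' deposited table. Its estimated levels were 151 normalized counts in div1 cells and 310 in ev cells. The 95% intervals of CKX5 (log2 -3.58 to -2.01) and CKX4 (-1.15 to -0.49) do not overlap, while that of CKX7 (-1.67 to -0.40) overlaps the one of CKX4. Per kilobase of exon, the 4 genes summed to an estimated 3604 normalized counts in div1 cells and 8076 in ev cells. CKX4 made up most of both sums, with 3194 in div1 cells and 5641 in ev cells. Because all 4 were called lower, a lower sum in div1 cells was fixed by the choice of genes. The sum leaves out CKX1, CKX2 and CKX6 and is not a level of the whole family.

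CKX1 (AT2G41510), CKX2 (AT2G19500) and CKX6 (AT3G63440) were not listed. CKX2 is the closest relative of CKX4, with 76.5% of aligned coding bases identical. CKX2 shares 38.6% of its exon bases with genes on the opposite strand, CKX1 35.2% and CKX6 91.5%. Whether strand was kept in library making and counting is not stated, and without it reads from such stretches cannot be given to one gene. CKX5 itself shares 28.8% of its exon bases with UBC16 and a pair of long noncoding RNA genes, none of which had a row. Of these, AT1G09553 lies on the same strand as CKX5 and covers 8.91% of the CKX5 exon bases. Keeping strand would not separate reads there. CKX3, CKX4 and CKX7 overlap no annotated gene. CKX5 lies on chromosome 1 at 28314458 to 28318375, minus strand. CKX3 lies on chromosome 5 at 23044839 to 23048292, minus strand, CKX4 on chromosome 4 at 14566183 to 14569380, plus strand, and CKX7 on chromosome 5 at 7226606 to 7230304, plus strand. The CKX5 upstream window (chr1:28318376-28318625, minus strand) is shown as that of the oxidase with the largest change and holds 1 match to the type-B word, 57 bases before the start.
CKX5: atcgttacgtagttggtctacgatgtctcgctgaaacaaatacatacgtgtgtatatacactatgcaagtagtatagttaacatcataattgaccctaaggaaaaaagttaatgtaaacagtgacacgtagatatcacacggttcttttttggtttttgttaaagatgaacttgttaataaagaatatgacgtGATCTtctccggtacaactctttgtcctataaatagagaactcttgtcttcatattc

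**Figure D3:**
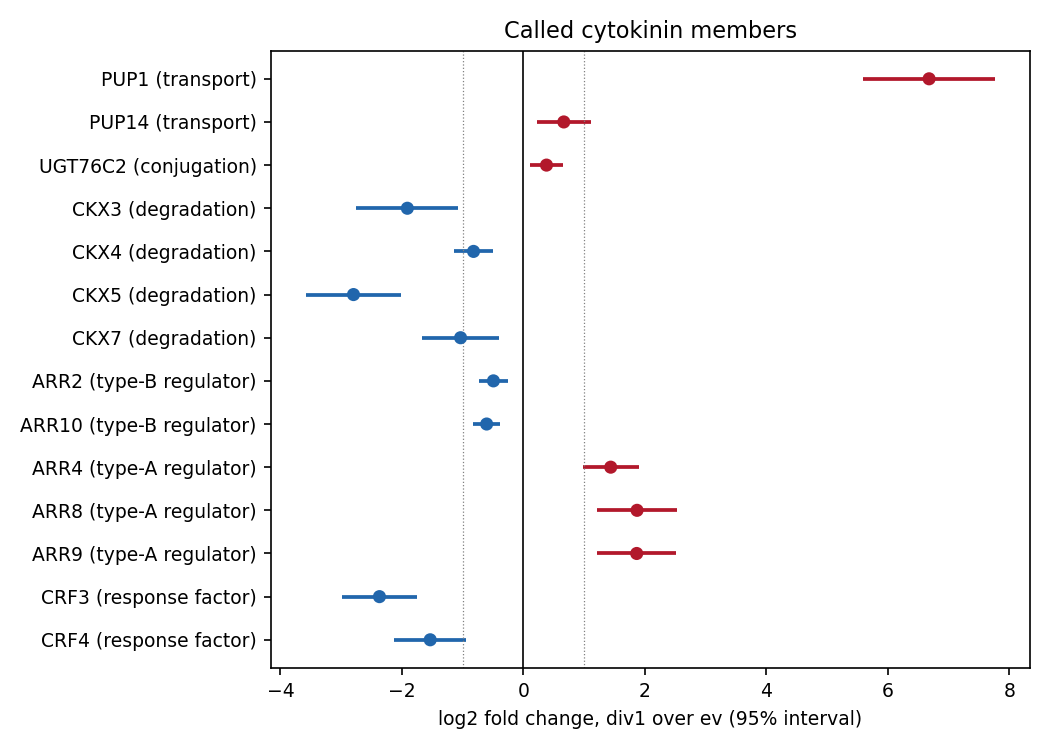
Log2 fold change of div1 over ev (points) with its 95% interval (bars, computed from the authors' standard errors) for the 14 called members, ordered by role. All 4 oxidases lie left of 0 and all 3 type-A regulators right of it, and dotted lines mark 2-fold changes.

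Receptors and phosphate carriers gave no call. The histidine kinase receptors AHK2 (AT5G35750), AHK3 (AT1G27320) and AHK4 (AT2G01830) and the phosphotransfer proteins AHP1 (AT3G21510), AHP2 (AT3G29350), AHP3 (AT5G39340) and AHP5 (AT1G03430) were not listed. A gene without a row may have been untested or may have missed the threshold, and the table does not separate these, so an unchanged level is not shown.

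Type-B regulators, the DNA-binding activators of the pathway, had 2 modest decreases. ARR10 (AT4G31920) fell by 0.60 (SE 0.12, adjusted p 5.18e-06) on the log2 scale per the authors' deposited table, to an estimated 1533 normalized counts in div1 cells, against 2330 in ev cells. ARR2 (AT4G16110), which acts with the receptor AHK3 in leaf longevity, fell by 0.49 (SE 0.12, adjusted p 7.83e-04) in the same unit per the authors' deposited table. Its estimated levels were 675 normalized counts in div1 cells and 950 in ev cells. Their standard errors are the smallest of the 14 called members, and neither gene overlaps another. ARR1 (AT3G16857), ARR12 (AT2G25180) and ARR11 (AT1G67710) were not listed. Among the 5 type-B members, the only type-B genes aligned here, ARR1 was closest to ARR2 and ARR12 to ARR10. The genes of each of these pairs share 81.0% (ARR1 and ARR2) and 78.0% (ARR10 and ARR12) of aligned coding bases. ARR1 shares 2.06% of its exon bases with COBL8 on the opposite strand, which itself fell by 1.01 (SE 0.12) on the log2 scale per the authors' deposited table. ARR2 lies on chromosome 4 at 9112686 to 9116164, plus strand, and ARR10 on chromosome 4 at 15444053 to 15447042, minus strand.

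Type-A regulators, which damp the response, rose where they were called. ARR8 (AT2G41310) showed a log2 change of 1.87 (SE 0.34, adjusted p 8.72e-07) per the authors' deposited table, with estimated levels of 404 normalized counts in div1 cells and 110 in ev cells. ARR9 (AT3G57040) showed a log2 change of 1.87 (SE 0.33, adjusted p 6.11e-07) per the authors' deposited table, with estimated levels of 213 normalized counts in div1 cells and 58.3 in ev cells. ARR8 and ARR9 are each other's closest relatives in the family, with 81.3% of aligned coding bases identical. Their folds of 3.66 and 3.64 have almost the same 95% interval, 2.32 to 5.77 for ARR8 and 2.33 to 5.71 for ARR9.

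ARR4 (AT1G10470), which also binds the red-light receptor phytochrome B, showed a log2 change of 1.44 (SE 0.24, adjusted p 4.34e-08) per the authors' deposited table. Its estimated levels were 822 normalized counts in div1 cells and 303 in ev cells, and it was the most abundant of the 3 per kilobase of exon, at 391 in div1 cells and 144 in ev cells. Its closest relative ARR3 (AT1G59940) was not listed. The genes share 83.2% of 680 aligned coding bases, out of coding lengths of 972 bases for ARR3 and 780 for ARR4. The remaining members ARR5 (AT3G48100), ARR6 (AT5G62920), ARR7 (AT1G19050), ARR15 (AT1G74890), ARR16 (AT2G40670) and ARR17 (AT3G56380) were not listed either. These include ARR5, ARR6, ARR7 and ARR15, widely used as early markers of cytokinin treatment. ARR6 shares 23.9% of its exon bases with AT5G62910 on the opposite strand, which rose by 0.40 (SE 0.13) on the log2 scale per the authors' deposited table.

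ARR8 shares 12.6% of its exon bases, and ARR9 10.0%, with long noncoding RNA genes on the opposite strand that had no row, and ARR4 overlaps none. ARR4 lies on chromosome 1 at 3441988 to 3444360, minus strand, ARR8 on chromosome 2 at 17221840 to 17224880, plus strand, and ARR9 on chromosome 3 at 21109059 to 21111567, plus strand. ARR8 is the only called member with exon stretches of 50 bases found elsewhere in the genome, 77 of 2035, matching AT2G07440, AT2G11620 and AT3G45800. The upstream windows of the 3 genes are shown because they rose together (chr1:3444361-3444610, minus strand, chr2:17221590-17221839 and chr3:21108809-21109058, both plus strand). Each holds the type-B word, 1 match in ARR4, 1 in ARR8 and 2 in ARR9. The word is common, found in 73.2% of 27437 windows of nuclear protein-coding genes. ARR8 adds the I-box word 20 bases before its start, and ARR4 the TATCCA word 221 bases before its start, both on the opposite strand.
ARR4: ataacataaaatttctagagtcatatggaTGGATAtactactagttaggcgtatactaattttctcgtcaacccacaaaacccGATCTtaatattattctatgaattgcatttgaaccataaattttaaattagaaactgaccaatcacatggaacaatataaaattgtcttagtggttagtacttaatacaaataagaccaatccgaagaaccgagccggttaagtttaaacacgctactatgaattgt
ARR8: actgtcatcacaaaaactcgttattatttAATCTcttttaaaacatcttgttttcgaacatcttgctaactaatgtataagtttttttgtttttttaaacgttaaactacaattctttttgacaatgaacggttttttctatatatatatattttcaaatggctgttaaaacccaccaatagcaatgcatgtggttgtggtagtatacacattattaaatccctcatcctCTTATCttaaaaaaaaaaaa
ARR9: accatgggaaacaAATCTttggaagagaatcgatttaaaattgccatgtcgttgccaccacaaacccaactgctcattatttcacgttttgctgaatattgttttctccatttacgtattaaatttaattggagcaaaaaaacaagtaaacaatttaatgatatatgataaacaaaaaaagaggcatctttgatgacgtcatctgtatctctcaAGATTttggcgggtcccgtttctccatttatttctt

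**Figure D4:**
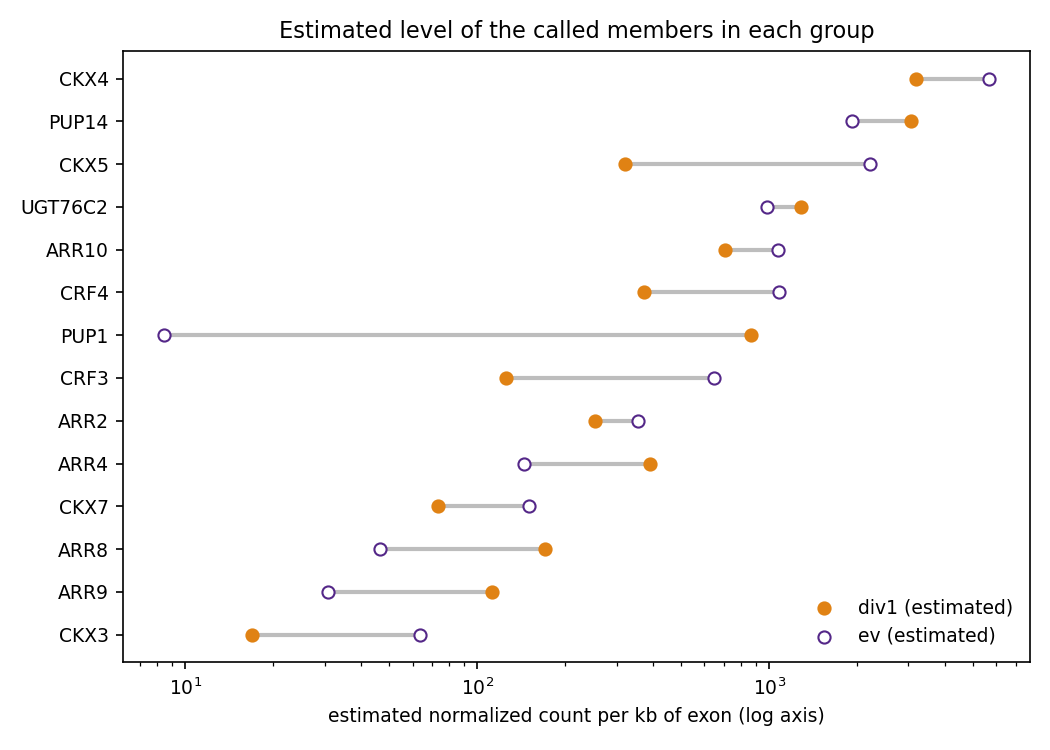
Estimated normalized count per kilobase of exon (x axis, log scale) in div1 (filled) and ev (open) for the 14 called members. Genes are ordered by their mean per kilobase of exon over all libraries. The estimates combine the authors' mean and fold change and carry no error bars. By that mean CKX4 stands highest and CKX3 lowest, and PUP1 shows the widest gap, 868 in div1 and 8.47 in ev.

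Cytokinin response factors are transcription factors of the AP2/ERF family. CRF3 (AT5G53290), which acts in lateral root growth in the cold, showed a log2 change of -2.37 (SE 0.32, adjusted p 6.5e-12), the 25th lowest of all calls per the authors' deposited table. Its estimated levels were 196 normalized counts in div1 cells and 1014 in ev cells. CRF4 (AT4G27950), known from nitrogen and cold responses, showed a log2 change of -1.53 (SE 0.30, adjusted p 1.02e-05) per the authors' deposited table, with estimated levels of 541 normalized counts in div1 cells and 1565 in ev cells. CRF3 and CRF4 are each other's closest relatives, with 72.6% of aligned coding bases identical. Their 95% intervals overlap (log2 -2.99 to -1.75 for CRF3, -2.12 to -0.94 for CRF4).

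CRF1 (AT4G11140), CRF2 (AT4G23750), CRF5 (AT2G46310) and CRF6 (AT3G61630) were not listed. Among these, CRF1 and CRF2 form the pair with 75.8%, and CRF5 and CRF6 the pair with 73.5% of aligned coding bases identical. Of the 6 members 2 were called, CRF3 and CRF4 (33.3%, beside 16.4% of all genes tested). A gene without a row may be untested, and whether calls follow relatedness was not tested. Among the other response factors, CRF7 and CRF10 were called, and their closest relatives CRF8 and CRF12 had no row. CRF4 shares 1.38% of its exon bases with a long noncoding RNA gene, and CRF3 none. CRF3 lies on chromosome 5 at 21617714 to 21619281 and CRF4 on chromosome 4 at 13909542 to 13910995, both on the minus strand. The upstream window of CRF3 (chr5:21619282-21619531, minus strand) is shown as that of the response factor with the larger change, with its type-B word 42 bases before the start.
CRF3: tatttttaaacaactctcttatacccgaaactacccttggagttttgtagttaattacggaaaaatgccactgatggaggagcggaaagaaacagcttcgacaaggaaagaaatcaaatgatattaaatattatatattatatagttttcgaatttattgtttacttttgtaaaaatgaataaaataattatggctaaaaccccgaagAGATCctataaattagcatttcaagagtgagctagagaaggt

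Across the 14 windows of 250 bases, none of which overlaps an annotated gene, the type-B and TATCCA words occurred in members of both directions, as did the I-box. The type-B word was found in 5 of 6 members called higher and 6 of 8 called lower, against 73.2% of 27437 windows of nuclear protein-coding genes. The I-box word was found in 1 of 6 higher members (ARR8) and 2 of 8 lower ones (CKX4 and CRF4), against 12.3% of all windows. Among all called genes, 18.8% of windows of the higher and 8.87% of the lower ones held the I-box word, 18.3% and 10.4% the TATCCA word, and 73.1% and 69.6% the type-B word. The TATCCA word was found in 1 of 6 higher members (ARR4) and 1 of 8 lower ones (ARR10), against 13.6% of all windows. The 27 members without a row held the type-B word in 21 windows, the I-box word in 1 and the TATCCA word in 2. With so few windows these counts are a description of letters and not of binding.

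**Figure D5:**
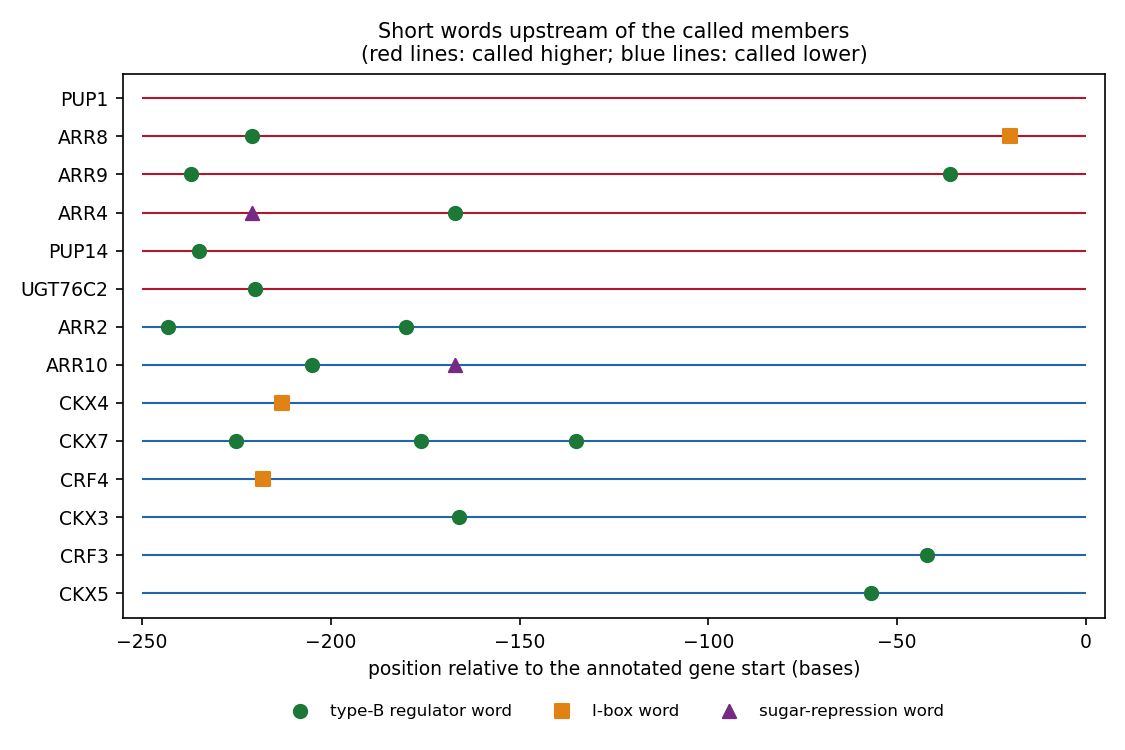
Position of each short word relative to the annotated gene start (x axis, in bases) in the 250 bases upstream of the 14 called members, ordered by log2 fold change, with red lines for members called higher and blue lines for members called lower. The type-B word (circles) occurs in both groups, the I-box word (squares) in ARR8, CKX4 and CRF4, and the sugar-repression word TATCCA (triangles) in ARR4 and ARR10.

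Calls among the rest of the pathway went both ways. Of 75 other cytokinin genes, 7 were higher, 5 lower and 63 not listed per the authors' deposited table, so 16.0% of the list was called, beside 16.4% of all genes tested. How many of the 75 were tested is unknown, and the list includes a pseudogene (PUP20), so the shares have unlike denominators. Some transport and conjugation genes rose here too. The nucleoside transporter ENT3 (AT4G05120) showed a log2 change of 1.40 (SE 0.19) and AZG1 (AT3G10960), a purine and cytokinin transporter, one of 0.80 (SE 0.16) per the authors' deposited table. UGT85A1 (AT1G22400), which makes O-glucosides of zeatin, and UGT73C5 (AT2G36800), which also glucosylates brassinosteroids, showed log2 changes of 1.57 (SE 0.19) and 0.85 (SE 0.26) per the authors' deposited table. Of their 50-base exon stretches, 4.21% for ENT3 and 6.76% for UGT73C5 recur in related genes, so reads may be shared there.

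Further permeases went both ways. PUP7 (AT4G18197) and PUP8 (AT4G18195), neighbours in a tandem array on chromosome 4, showed log2 changes of -0.83 (SE 0.13) and -0.78 (SE 0.14) per the authors' deposited table. PUP18 (AT1G57990), the permease with the highest mean per kilobase among those listed, rose by 0.84 (SE 0.24) on the log2 scale per the authors' deposited table, with estimated levels of 29834 normalized counts in div1 cells and 16657 in ev cells. Of its 50-base exon stretches 0.553% recur in AT1G57980, a gene beside it outside the lists, which rose by 1.11 on the log2 scale per the authors' deposited table. Over the 21 permeases named PUP1 to PUP21, 3 were higher, 2 lower and 16 not listed. That is 23.8% called, beside 16.4% of all genes tested. PUP7 shares 6.38% of its 50-base exon stretches with PUP21 and 11.3% of its exon bases with a gene on the opposite strand.

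Synthesis genes and later response factors also had calls in both directions. Of the 19 other synthesis genes, 10.5% were called, beside 16.4% of all genes tested. IPT1 (AT1G68460), an isopentenyltransferase of free nucleotides, showed a log2 change of 1.37 (SE 0.37), and IPT2 (AT2G27760), which modifies transfer RNA, one of -0.38 (SE 0.11) per the authors' deposited table. The remaining 17 of 19 other synthesis genes, among them the LOG enzymes that release active cytokinin and the hydroxylases CYP735A1 and CYP735A2, were not listed. CRF7 (AT1G22985) rose by 0.90 (SE 0.16) on the log2 scale, and CRF10 (AT1G68550) and CRF11 (AT3G25890) showed log2 changes of -0.56 (SE 0.12) and -0.68 (SE 0.22) per the authors' deposited table. With CRF3 and CRF4, 4 of the 12 response factors were lower and 1 higher, so 41.7% were called, beside 16.4% of all genes tested. None of 5 further phosphorelay genes, 8 further response regulators, 4 KMD F-box genes that target type-B regulators, and 4 other known targets had a row. KMD3 and KMD4 share 100% of their exon bases with genes on the opposite strand. Without strand, their reads cannot be given to a single gene.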

How the data were processed

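Poly(A) RNA of leaf protoplasts was sequenced in 4 div1 and 4 ev libraries. Per the submitters' processing notes, the authors used the TAIR10 build with DESeq2, featureCounts 2.0.1, HISAT2 and fastp 0.21.0, whose settings and strand mode are not stated there. Per the file headers, the deposited table gives per gene a mean normalized count (a signal averaged over libraries by the authors), the log2 fold change with a standard error, the test statistic (a score), and the p-value before and after adjustment. Its largest adjusted p is 0.0499, so it lists calls only, and depth per library is unknown. No test was run here, and the calls are the authors' own, at an adjusted p under 0.05 across all genes.

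The number of genes adjusted over, 18010, is the largest adjusted p times rank divided by p, and 2548 genes lie within 0.5 of it. This recovery was checked on simulated p-values. The group estimates were checked on made-up group means without noise, and the word search on a made-up sequence holding the I-box word. These checks cover the arithmetic and not the accuracy of the estimated levels. Group levels were solved from each gene's overall mean and its fold change, with 4 libraries a group. Intervals are 95%, 1.96 standard errors either side. Positions, overlaps (1 base or more), exon lengths, sequences and coding identity come from RefSeq TAIR10.1. Coding identity is the share of aligned bases and leaves out gaps. All members with a row, all other pathway genes with a row and DIV1 are named, by rule. The members and lists were chosen with earlier results of these data known. The software was Biopython 1.88, matplotlib 3.10.9, pandas 2.3.3 and numpy 2.4.6 under Python 3.11.15.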

Additional observations from a re-analysis of the deposited data

How the results depend on the processing

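No paired analysis was possible because the deposited table holds no values per library, and for the same reason no library could be left out. The 14 members called became 11 at an adjusted p under 0.01, without CKX7, UGT76C2 and PUP14, and 13 with a mean of at least 100, without CKX3. They became 9 at 2-fold or more (4 higher, 5 lower), 9 under Bonferroni adjustment (4 higher, 5 lower), 9 without genes that overlap another (3 higher, 6 lower) and 8 with a 95% interval wholly beyond 0.5 on the log2 scale (4 higher, 4 lower). As shares of the members and then of all genes tested, these are 26.8% and 10.9% at an adjusted p under 0.01, 31.7% and 15.0% at a mean of at least 100, 22.0% and 5.67% at 2-fold or more, 22.0% and 4.58% under Bonferroni, and 19.5% and 5.96% under the interval rule. The share of all genes tested was not computed for the overlap rule. PUP1, CRF3 and ARR4 met every one of these rules. The other 12 cytokinin genes called became 3 at 2-fold or more, 6 under Bonferroni adjustment and 5 under the interval rule. These rules select among the authors' calls and cannot add any, and none tests how reads were counted.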

Other observations

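A search chosen after the data were seen took the genes outside both lists whose RefSeq description or synonyms mention cytokinin, 46 in number. Of these, 1 was called higher and 1 lower (4.35%), and 44 had no row, beside 16.4% of all genes tested, 9.14% higher and 7.28% lower. How many of the 46 were tested is unknown. GA2OX2 (AT1G30040), an oxidase that inactivates gibberellins, showed a log2 change of 0.81 (SE 0.30, adjusted p 0.0455) per the authors' deposited table. BRX (AT1G31880), a regulator of root growth and vascular development, showed a log2 change of -2.19 (SE 0.66, adjusted p 0.00878) at an average normalized count of 86.9 per the authors' deposited table. Neither gene overlaps another.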
